A study of Caenorhabditis elegans with 12 samples.

Results

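The 10 genes skr-1, skr-2, skr-3, skr-4, skr-5, skr-7, skr-8, skr-9, skr-10 and skr-12 of Caenorhabditis elegans encode proteins related to Skp1. They were chosen by name from 20257 genes listed in each library, in which 20 genes carry an skr symbol. The gene skr-12 was picked because its level was said to rise with age in glp-1 animals alone, so its values are given as a description, with no test. The genes skr-1 and skr-2 were included as the core forms of the family, and the list as a whole was drawn up with results of these data known.

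Skp1 is the adaptor of SCF ubiquitin ligases, in which it joins a cullin scaffold to an F-box protein that holds the substrate. The scaffold CUL-1 also binds the RING protein RBX-1, which brings in the ubiquitin-conjugating enzyme. Yeast and humans work with few Skp1 genes, whereas the worm has a large family, in which skr-1 and skr-2 restrain cell proliferation in embryos and act in meiotic germ cells. The genes skr-7, skr-8, skr-9 and skr-10 are needed for growth and normal shape, as seen in RNA interference experiments. The genes skr-3, skr-4 and skr-5 work with the cullin CUL-6 in the intracellular pathogen response, a set of genes switched on by microsporidia, by a virus and by lasting heat. No function is given here for skr-12.

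Transcripts of whole worms were measured in 12 libraries, 3 in each of 4 groups, namely glp-1(e2141) at day 6 of adulthood (glp-1 D6), glp-1(e2141) at day 1 (glp-1 D1), wild type N2 at day 6 (WT D6) and wild type N2 at day 1 (WT D1). All animals grew from synchronized L1 larvae on OP50 bacteria at 25 °C to D1. The D6 animals of both genotypes then stayed at a lower temperature, given as 20 °C in the design text and as 20, 21 and 22 °C for replicates 1, 2 and 3 in the labels, so age and temperature cannot be told apart. The allele e2141 is a temperature-sensitive mutation of the Notch receptor gene glp-1, carried in every tissue, and at 25 °C such animals grow up nearly without germ cells. The labels do not state whether the 3 libraries of each group stem from different cultures. A p-value here thus weighs differences against a spread between libraries that may be technical.

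The libraries went with their labels in the level of glp-1 and in the germline markers. The gene glp-1 had 5.44 to 6.69 FPKM in glp-1 D6, 3.21 to 3.39 in glp-1 D1, 96.9 to 99.3 in WT D6 and 64.4 to 68.7 in WT D1. FPKM is a fragment count divided by the length of the gene and by the library's total of mapped fragments. The 15 germline markers summed to 23.3 to 122 FPKM in glp-1 D6, 12.7 to 15.4 in glp-1 D1, 10892 to 11736 in WT D6 and 8773 to 9081 in WT D1. Intestinal markers (11 genes) summed to 7326 to 8283, 4810 to 6270, 2545 to 2909 and 2321 to 3827 FPKM in the same order of groups. Of this, cpr-1 alone had 4502 to 5064 FPKM in glp-1 D6 and 405 to 986 in glp-1 D1. The markers act-5, ifb-2, pho-1, asp-1 and vha-6 were lower at D6 than at D1 in both genotypes. In glp-1 ges-1, elt-7 and mtl-2 were higher at D6, and elt-2 and ifc-2 overlapped between ages. The sum thus does not stand for the whole list. Between 11100 and 12113 genes reached 1 FPKM in a library, and the read depth is unknown because the files hold no counts.

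In the Ensembl annotation of WBcel235, the build named in the submitters' processing notes, skr-1 (chromosome I, 9471550 to 9472641) and skr-2 (chromosome I, 9469654 to 9470637) lie side by side on the plus strand, each with 3 exons. The genes skr-3 (chromosome V, 16121084 to 16122649), skr-4 (chromosome V, 19924224 to 19925033) and skr-5 (chromosome V, 17347902 to 17348723) have 3 or 4 exons. The remaining members have 1 exon each. Of these, skr-7 is on chromosome V (4422427 to 4423011) and skr-10 on chromosome IV (15946807 to 15947385), while skr-9 (17163573 to 17164157), skr-8 (17165250 to 17165834) and skr-12 (17167274 to 17167792) stand with skr-13 (17162097 to 17162615) in a stretch of 5696 bases of chromosome IV that holds 4 protein-coding genes, all of them skr genes. The coding lengths of skr-7, skr-8 and skr-9 are equal at 582 bases without the stop codon, and those of skr-12 and skr-13 are equal at 516 bases. How alike these genes are in sequence was not measured here, so fragments could have been split between copies and values of skr-7, skr-8, skr-9, skr-10, skr-12 and skr-13 are uncertain to that extent.

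The question of the design is what differs without a germline and with age. The 10 genes fell into sets with different patterns. In both ages of glp-1 animals skr-2, skr-7, skr-8, skr-9 and skr-10 were near 0, skr-3, skr-4 and skr-5 were higher than in WT, and skr-1 stood at 89.3% of its WT mean at D6 and 92.1% at D1. At D6 of glp-1 skr-12 reached the second highest level of the 10 genes.

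**Figure D1:**
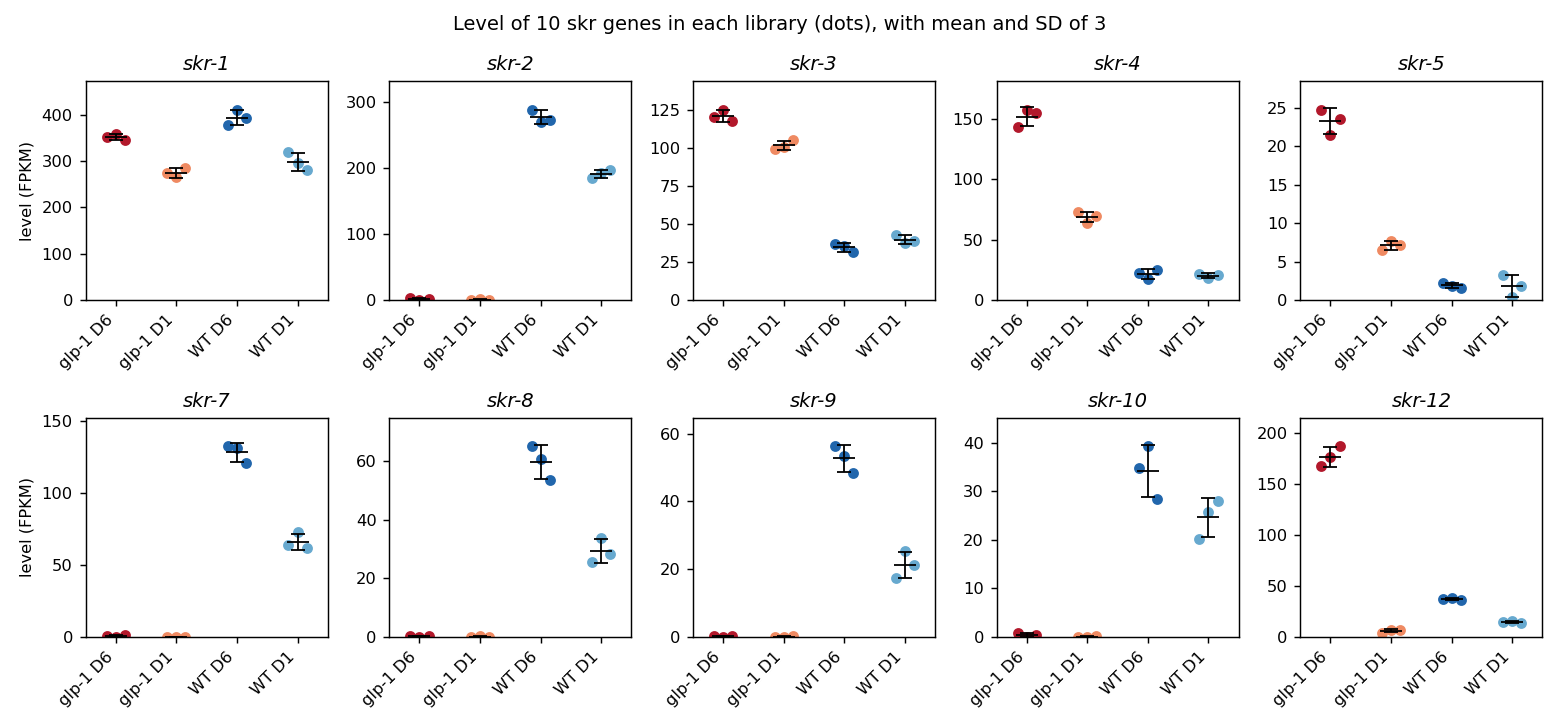
Level in FPKM (vertical axis, from 0, scaled for each gene) of the 10 skr genes in the 4 groups (horizontal axis). Dots are the 3 libraries of a group, and the black bar gives mean and SD. The glp-1 libraries of skr-2, skr-7, skr-8, skr-9 and skr-10 sit near 0, those of skr-3, skr-4 and skr-5 lie above all WT libraries, and skr-12 is highest at glp-1 D6 with a mean of 177 FPKM.

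The core gene skr-1, the adaptor used by most known worm SCF ligases, had 351, 359 and 345 FPKM in glp-1 D6, and 378, 411 and 392 FPKM in WT D6. At D1 it had 274, 265 and 285 FPKM in glp-1 and 318, 297 and 280 FPKM in WT. At D6 every glp-1 library lay below every WT library, and at D1 the genotypes overlapped. It was the most abundant of the 10 genes in all 12 libraries. On the scale of log2(FPKM + 1), the fold change of glp-1 over WT was -0.16 (SE 0.06) at D6, which passed (limma, adjusted p = 0.0204), and -0.12 (SE 0.06) at D1, which did not (limma, adjusted p = 0.0778). The difference at D6 turned round to 0.21 when libraries were scaled by a trimmed mean, and it lost its call without replicate 3 of glp-1 D6 (-0.15, limma adjusted p = 0.0549) and without replicate 2 of WT D6 (-0.13, limma adjusted p = 0.0811). Scaled to muscle and neuron markers, skr-1 was lower in glp-1 by far more at D6 (-1.94, limma adjusted p = 1.75e-12) and was called at D1 as well (-1.34, limma adjusted p = 4.62e-10).

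Its neighbour skr-2, the other core form, had 3.27, 0.587 and 1.76 FPKM in glp-1 D6, and 289, 269 and 273 FPKM in WT D6. At D1 it had 0.106, 0.889 and 0.530 FPKM in glp-1 and 185, 193 and 196 FPKM in WT. The groups were far apart, and the level in glp-1 was 0.676% of that in WT at D6 and 0.266% at D1. The log2 fold change was -6.71 (SE 0.29) at D6 and -7.03 (SE 0.29) at D1 (limma, adjusted p = 1.76e-10 and 1.47e-10). A gene was tested if it reached 1 FPKM in 3 libraries. Through WT alone skr-2 passed this filter, so it had to differ between genotypes and these p-values give no support. In bulk samples of whole worms, fewer cells of a type and less RNA per cell cannot be told apart. In WT skr-2 stood at 65.6% to 76.4% of the level of skr-1 at D6 and 58.0% to 70.2% at D1, while in glp-1 it stood at 0.163% to 0.932% at D6 and 0.0386% to 0.336% at D1.

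The single-exon genes skr-7, skr-8, skr-9 and skr-10, whose loss slows growth, were likewise near 0 in glp-1. The gene skr-7 had 0.449, 0.0797 and 0.859 FPKM in glp-1 D6 and 133, 132 and 121 FPKM in WT D6. At D1 it had 0.083 FPKM in replicate 1 of glp-1 and was listed at 0 in replicates 2 and 3, against 64.1, 72.5 and 62.0 FPKM in WT. Both WT groups lay above 60 FPKM and both glp-1 groups below 1 FPKM.

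The gene skr-8 had 0.196, 0 and 0.130 FPKM in glp-1 D6, and 65.0, 60.5 and 53.6 FPKM in WT D6. In glp-1 D1 it was listed at 0 in replicates 1 and 3 and had 0.0862 FPKM in replicate 2, against 25.6, 33.8 and 28.3 FPKM in WT D1. Its neighbour skr-9 had 0.196, 0 and 0.114 FPKM in glp-1 D6, and 56.3, 53.4 and 48.5 FPKM in WT D6. Within the chromosome IV stretch, skr-8 and skr-9 were thus near 0 in every glp-1 D6 library and above 45 FPKM in every WT D6 library, unlike skr-12 (below). At D1 skr-9 had 0.0453, 0 and 0.0879 FPKM in glp-1, and 17.5, 25.2 and 21.1 FPKM in WT. The gene skr-10 had 0.759, 0 and 0.326 FPKM in glp-1 D6, and 34.8, 39.3 and 28.5 FPKM in WT D6. In glp-1 D1 it was listed at 0 in replicates 1 and 2 and had 0.0888 FPKM in replicate 3, against 20.2, 25.7 and 27.99 FPKM in WT D1. None of these genes reached 1 FPKM in a glp-1 library.

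The log2 fold changes of glp-1 over WT at D6 were -6.50 (SE 0.16) for skr-7, -5.77 (SE 0.13) for skr-8, -5.61 (SE 0.14) for skr-9 and -4.72 (SE 0.19) for skr-10, with limma adjusted p from 2.01e-13 to 3.43e-11. At D1 they were -6.03 (SE 0.16), -4.87 (SE 0.13), -4.40 (SE 0.14) and -4.63 (SE 0.19) in the same order, with limma adjusted p from 7.9e-13 to 5.54e-11. On this scale a level near 0 counts as 0, so the sizes mirror the WT level. These genes and skr-2 passed the filter of 1 FPKM in 3 libraries through WT alone, and so had to differ between genotypes. Their p-values for genotype thus give no support.

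The trace of these genes that was left in glp-1 at D6 varied with the library. In replicate 1 of glp-1 D6 skr-2 stood at 1.18% of the WT D6 mean and skr-10 at 2.22%, and the median of the 15 germline markers stood at 1.08%. In replicate 3 the shares were 0.635% for skr-2, 0.953% for skr-10 and 0.702% for the markers. In replicate 2 skr-2 had 0.212%, skr-10 was listed at 0 and the markers had 0.148%. The order of the 3 libraries was thus the same for skr-2, skr-10 and the germline markers. It was the same for skr-8 and skr-9, with 0.328% and 0.371% in replicate 1, 0.218% and 0.216% in replicate 3, and 0 in replicate 2. It was not the same for skr-7, which had 0.669% in replicate 3, 0.350% in replicate 1 and 0.0621% in replicate 2. At D1 skr-2 did not follow the order of the markers. The markers had medians of 0.0775%, 0.0658% and 0.0482% of WT in replicates 1, 2 and 3, and skr-2 had 0.0553%, 0.465% and 0.277%. Among the others, skr-7 was above 0 in replicate 1 alone, skr-8 in replicate 2 alone and skr-10 in replicate 3 alone. The highest value of skr-9 was in replicate 3. The part of remaining germ cells in these values was not tested.

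**Figure D2:**
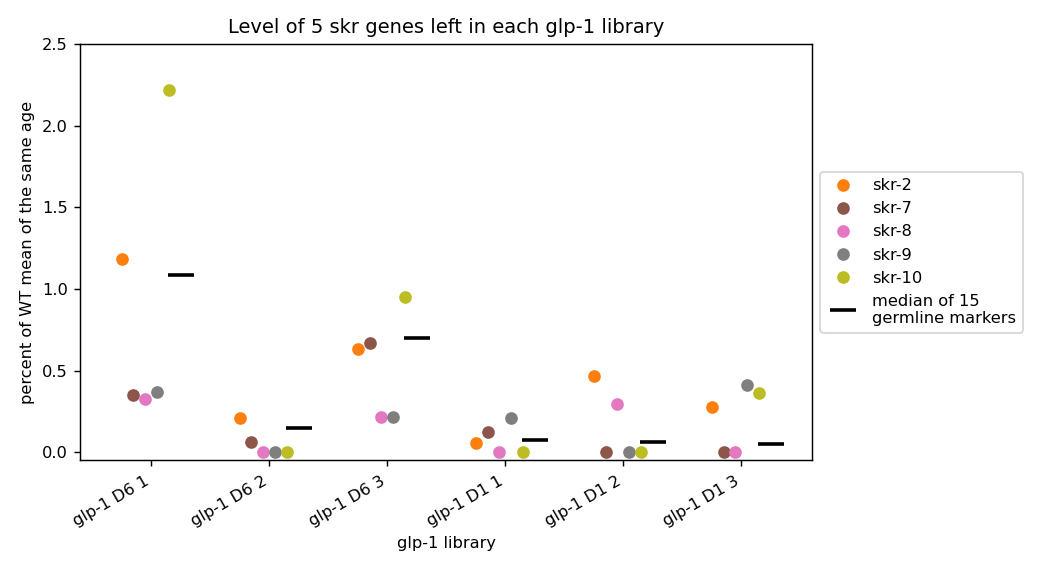
Level of skr-2, skr-7, skr-8, skr-9 and skr-10 in each of the 6 glp-1 libraries (horizontal axis) as a percent of the WT mean of the same age (vertical axis, linear). The black dash is the median of 15 germline markers. In glp-1 D6 the dash is highest in replicate 1 (1.08%) and lowest in replicate 2 (0.148%), and skr-2, skr-8, skr-9 and skr-10 follow that order, while skr-7 is highest in replicate 3.

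The genes of the intracellular pathogen response moved the other way. The gene skr-3, whose protein binds cullins, had 120, 125 and 118 FPKM in glp-1 D6 and 37.003, 35.2 and 31.6 FPKM in WT D6. At D1 it had 99.2, 101 and 105 FPKM in glp-1 and 43.1, 37.6 and 38.5 FPKM in WT. All 6 glp-1 libraries lay above all 6 WT libraries, with means 3.498 times those of WT at D6 and 2.56 times at D1. The log2 fold change was 1.78 (SE 0.07) at D6 and 1.34 (SE 0.07) at D1 (limma, adjusted p = 2.43e-11 and 6.23e-10). When libraries were scaled to muscle and neuron markers, skr-3 was not called at either age (0.02 at D6 with limma adjusted p = 0.883, and 0.13 at D1 with limma adjusted p = 0.373).

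Its relative skr-4 had 143, 158.02 and 155 FPKM in glp-1 D6, and 22.7, 17.2 and 24.6 FPKM in WT D6. At D1 it had 72.6, 64.2 and 69.6 FPKM in glp-1 and 21.8, 18.5 and 20.7 FPKM in WT. The glp-1 D6 libraries were the highest, the glp-1 D1 libraries were next, and the WT ages overlapped at the bottom. The means differed by a factor of 7.07 at D6 and 3.39 at D1, with a log2 fold change of 2.78 (SE 0.11) and 1.71 (SE 0.11) (limma, adjusted p = 2.66e-11 and 5.72e-09). The call held with the muscle and neuron scaling, at 1.03 for D6 and 0.51 for D1.

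The gene skr-5, the least abundant of the 3, had 24.7, 21.4 and 23.6 FPKM in glp-1 D6, and 2.21, 1.87 and 1.603 FPKM in WT D6. At D1 it had 6.44, 7.65 and 7.18 FPKM in glp-1 and 3.27, 0.445 and 1.88 FPKM in WT. Every glp-1 library was above every WT library, and the factor between means was 12.3 at D6 and 3.81 at D1. The log2 fold change was 3.07 (SE 0.28) at D6 and 1.63 (SE 0.28) at D1 (limma, adjusted p = 2.28e-07 and 0.000122). With the muscle and neuron scaling the call at D1 ended (0.68, limma adjusted p = 0.0666). The gene lsy-27 on the opposite strand overlaps 59 of its 822 bases, and had 0 to 0.645 FPKM in glp-1 libraries and 40.2 to 80.6 FPKM in WT libraries, so it was low where skr-5 was high.

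Of the 9 members other than skr-12, limma called 8 for genotype at D1, where 3 were higher in glp-1 animals and 5 were lower, beside 89.4% of all 13614 genes tested (41.3% higher and 48.1% lower). At D6 limma called all 9, of which 3 were higher and 6 lower, beside 89.8% of all genes (44.4% higher and 45.4% lower). The shares of members called are near this background. No support can be read from these counts, since 5 of the 9 passed the filter through WT only.

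**Figure D3:**
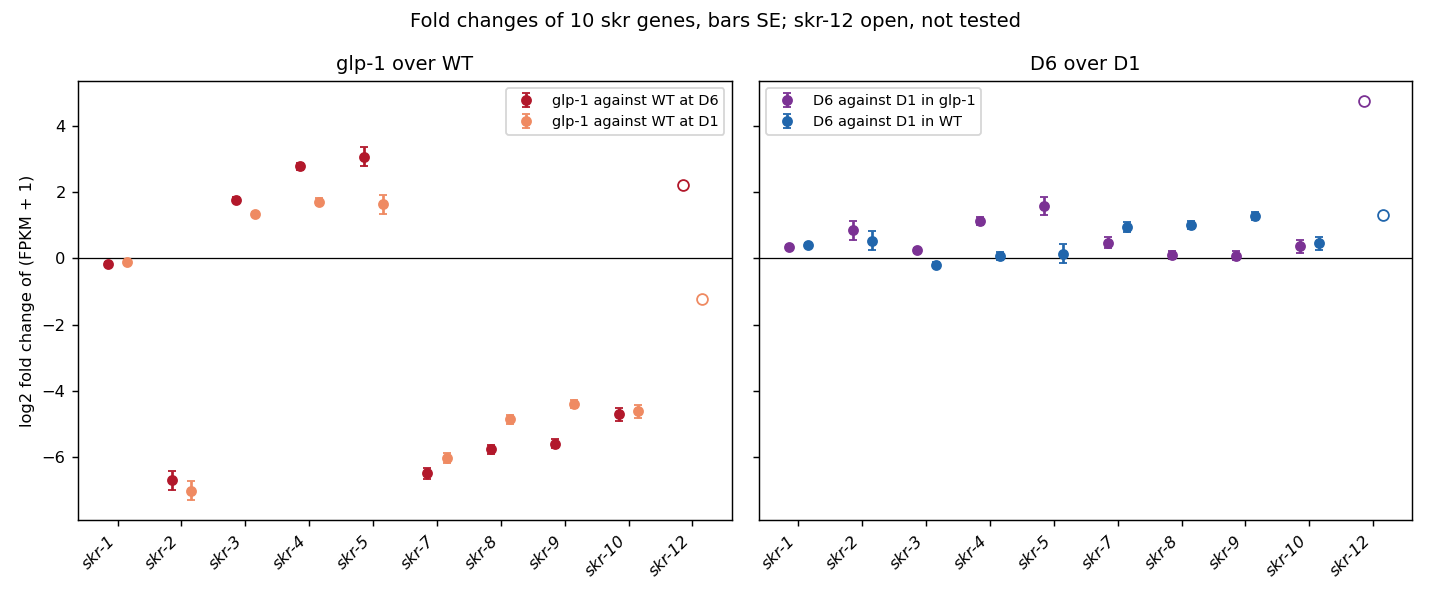
Log2 fold change of (FPKM + 1) on the vertical axis for the 10 skr genes, for glp-1 over WT at each age (left panel) and for D6 over D1 in each genotype (right panel). Bars are the SE from limma; skr-12 is drawn as an open circle with no bar because it was not tested. Left, skr-2 and the 4 genes skr-7 to skr-10 lie between -7.03 and -4.40, while skr-3, skr-4 and skr-5 lie between 1.34 and 3.07.

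The make-up of the RNA of these genes differed between genotypes. The 10 genes summed to 812 to 841 FPKM in glp-1 D6, 445 to 474 in glp-1 D1, 1011 to 1057 in WT D6 and 690 to 719 in WT D1. In glp-1 D6 skr-1 gave 42.5% ± 0.913 of this sum, skr-12 21.4% ± 0.995, skr-4 18.4% ± 0.621, skr-3 14.6% ± 0.409 and skr-5 2.81% ± 0.252 (SD, n = 3). In glp-1 D1 skr-1 gave 59.9% ± 0.360, skr-3 22.2% ± 0.463 and skr-4 15.002% ± 0.806, and skr-12 gave 1.24% ± 0.348 (SD, n = 3). The genes skr-2, skr-7, skr-8, skr-9 and skr-10, a set named after its values were seen, gave 0.0792% to 0.600% in glp-1 D6 and 0.0513% to 0.219% in glp-1 D1. In WT the same 5 genes gave 51.9% to 54.7% at D6 and 43.8% to 48.7% at D1.

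**Figure D4:**
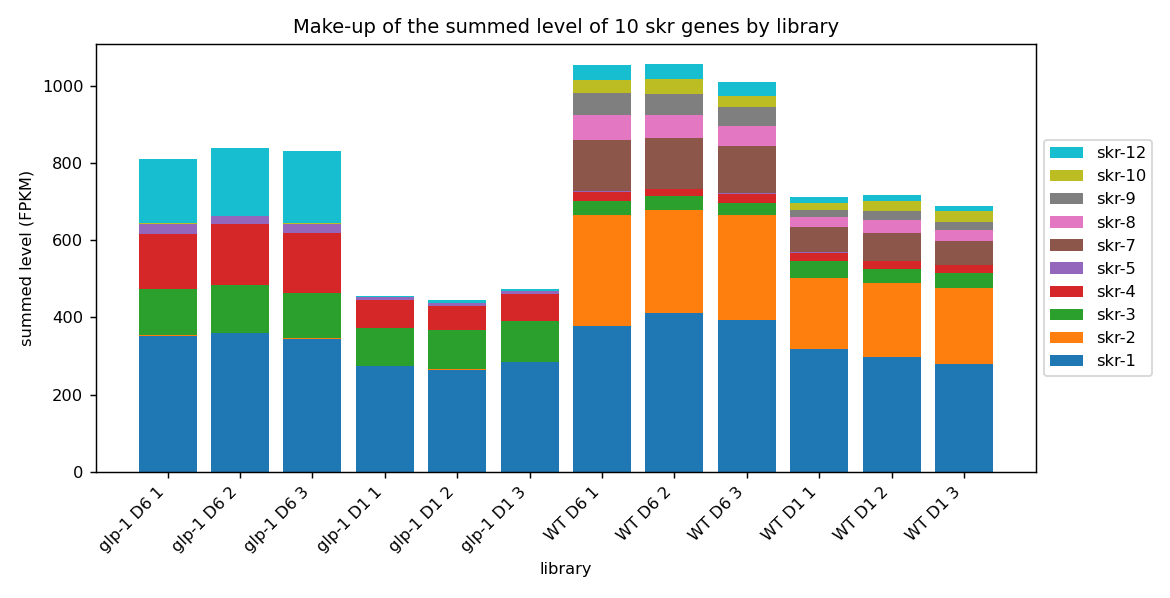
Summed level in FPKM (vertical axis) of the 10 skr genes in each of the 12 libraries (horizontal axis), stacked by gene from skr-1 at the bottom to skr-12 at the top. The sum is 812 to 841 FPKM in glp-1 D6 and 1011 to 1057 FPKM in WT D6; skr-2 and skr-7 fill much of the WT bars and cannot be seen in the glp-1 bars, where skr-3, skr-4 and, at D6, skr-12 fill the space above skr-1.

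The gene skr-12 had 167, 176 and 187 FPKM in glp-1 D6 and 3.89, 6.74 and 6.48 FPKM in glp-1 D1. In WT it had 37.3, 37.96 and 35.9 FPKM at D6 and 14.6, 15.3 and 13.3 FPKM at D1. It was thus higher at D6 than at D1 in both genotypes with no overlap, by a factor of 31.02 between means in glp-1 and 2.57 in WT, which goes against its description as a gene that rises in glp-1 only. The order of its levels was glp-1 D6, WT D6, WT D1 and glp-1 D1, and no neighbours in that order overlapped. At D6 the mean in glp-1 was 4.77 times that in WT, and at D1 it was 39.6% of that in WT. On the log2(FPKM + 1) scale the change with age was 4.76 in glp-1 and 1.31 in WT, and the difference of glp-1 from WT was 2.22 at D6 and -1.23 at D1. With libraries scaled to muscle and neuron markers the difference at D6 was 0.46 and the change in WT was 2.16.

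The other 3 skr genes in the chromosome IV stretch of skr-12 stayed near 0 in glp-1. In glp-1 D6 skr-13 had 0.498, 0.144 and 0.647 FPKM, and skr-8 and skr-9 stayed at 0.196 FPKM or less. In WT the 4 genes were closer, with means of 37.05 FPKM for skr-12, 59.7 for skr-8, 52.7 for skr-9 and 22.5 for skr-13 at D6. Outside the stretch, the next protein-coding gene beyond skr-12 is C52D10.3, on the same strand. It had 83.4 to 98.0 FPKM in the glp-1 libraries and 2.80 to 8.20 FPKM in the WT libraries.

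The 5 genes with the pattern most like that of skr-12 were found by the root mean square difference of centred log2(FPKM + 1) values over the 12 libraries, among 13604 genes. They were T26H5.10 (0.38), lys-10 (0.39), a member of the lysozyme family, ZK596.1 (0.55), ptr-22 (0.56), of the patched-related family, and F07B7.8 (0.57), where the median over all genes was 1.93. The mean of lys-10 was 76.7 FPKM in glp-1 D6, 1.03 in glp-1 D1, 13.1 in WT D6 and 3.72 in WT D1, and ptr-22 had 52.6, 0.348, 6.58 and 0.733 FPKM in the same order. Both were highest in glp-1 D6 and lowest in glp-1 D1, as skr-12 was, and so was T26H5.10. The genes ZK596.1 and F07B7.8 were also highest in glp-1 D6 but lowest in WT D1. Their means there were 18.6 and 0.0911 FPKM, against 20.97 and 0.173 FPKM in glp-1 D1. The skr gene outside the members that was most like it was skr-20, at 1.55.

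With age, the other members changed less. In glp-1, limma called 6 of the 9 higher at D6 and none lower, beside 54.7% of all genes called (39.1% higher and 15.6% lower). They were skr-5 (1.58, SE 0.28, adjusted p = 0.000443), skr-4 (1.13, SE 0.11, adjusted p = 2.49e-06), skr-2 (0.85, SE 0.29, adjusted p = 0.0246), skr-7 (0.48, SE 0.16, adjusted p = 0.0222), skr-1 (0.36, SE 0.06, adjusted p = 0.000234) and skr-3 (0.25, SE 0.07, adjusted p = 0.0101). The values of skr-2 and skr-7 lay below 4 FPKM at both ages. Their calls ended in a fit of the glp-1 libraries alone (limma, adjusted p = 0.0894 for skr-2 and 0.0733 for skr-7), and both ended without replicate 1 of glp-1 D6 (0.51 with limma adjusted p = 0.0836 for skr-2, and 0.46 with limma adjusted p = 0.051 for skr-7), the library with the highest germline markers. They ended as well without replicate 3 of glp-1 D6 (0.82 for skr-2 and 0.28 for skr-7), without replicate 3 of glp-1 D1 (0.88 and 0.46), and without replicate 1 of glp-1 D1 for skr-2 (0.64) or replicate 2 of glp-1 D1 for skr-7 (0.46).

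In WT, limma called 4 of the 9 higher and 1 lower at D6, beside 57.7% of all genes called (35.1% higher and 22.7% lower). The higher ones were skr-9 (1.28, SE 0.14, adjusted p = 6e-06), skr-8 (1.01, SE 0.13, adjusted p = 2.74e-05), skr-7 (0.95, SE 0.16, adjusted p = 0.000267) and skr-1 (0.40, SE 0.06, adjusted p = 0.000104). The call of skr-7 ended with 0.1 FPKM added (0.96, limma adjusted p = 0.108), and skr-1 had 0.19 with the trimmed-mean scaling, still called. The means of skr-7, skr-8 and skr-9 at D6 were 1.94, 2.04 and 2.48 times those at D1. The gene skr-3 was lower (-0.19, SE 0.07, adjusted p = 0.0322), and all its WT D6 libraries lay below all its WT D1 libraries. This call ended in a fit of the WT libraries alone (limma, adjusted p = 0.08) and without replicate 2 of WT D6 (-0.21), replicate 3 of WT D6 (-0.13) or replicate 1 of WT D1 (-0.14), and with the muscle and neuron scaling skr-3 was higher (0.64). For skr-2, 0.53 (SE 0.29, limma adjusted p = 0.13) did not pass, with a spread shared with the scattered glp-1 libraries; in a fit of the WT libraries alone the same difference passed (limma, adjusted p = 1.26e-05), and all 3 WT D6 libraries lay above all 3 WT D1 libraries. Values of 0.46 for skr-10, 0.14 for skr-5 and 0.07 for skr-4 did not pass (limma, adjusted p = 0.0596, 0.685 and 0.631), and skr-10 passed in the fit of WT libraries alone (limma, adjusted p = 0.0184).

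The muscle and neuron scaling gave 9 of 9 higher with age in WT, beside 9692 of 13788 genes. The muscle markers behind it themselves summed to 2772 to 3311 FPKM in glp-1 D6, 6763 to 8644 in glp-1 D1, 629 to 755 in WT D6 and 2298 to 3011 in WT D1, so they were lower at D6 in both genotypes. The neuron markers summed to 1181 to 1223 FPKM in glp-1 D6, 789 to 837 in glp-1 D1, 611 to 698 in WT D6 and 542 to 582 in WT D1. Of the neuron sums in WT, snb-1 alone gave 441 to 491 FPKM at D6 and 354 to 362 at D1. This scaling moved the median of all genes to 0.90 for age in WT, against 0.13 as deposited, to 0.35 for age in glp-1 against 0.20, to -1.10 for genotype at D1 against -0.15, and to -1.30 for genotype at D6 against -0.0318. The share of calls that were higher became 17.5% (against 46.2%) for genotype at D1, 22.5% (against 49.5%) at D6, 85.2% (against 71.4%) for age in glp-1, 87.4% (against 60.7%) for age in WT and 22.5% (against 65%) for the difference between the changes with age. The trimmed-mean scaling gave 38.5% for age in WT and 83.4% for that difference.

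The difference between the changes with age was called for 5 of the 9 members, beside 47.5% of all genes (30.9% higher and 16.6% lower). The change in glp-1 minus that in WT was 1.44 (SE 0.40) for skr-5, 1.07 (SE 0.16) for skr-4 and 0.44 (SE 0.10) for skr-3 (limma, adjusted p = 0.0109, 0.000154 and 0.00312). It was -0.91 (SE 0.18) for skr-8 and -1.21 (SE 0.19) for skr-9 (limma, adjusted p = 0.00134 and 0.000264), both of which rose with age in WT and were at 0.196 FPKM or less in glp-1. Both genes passed the filter through WT alone. With 1 FPKM added, their change in glp-1 was held near 0 (0.11 for skr-8 and 0.08 for skr-9). Their calls thus restate the rise in WT and give no support of their own. With 0.1 FPKM added in place of 1 FPKM, the calls of skr-5 (1.34), skr-8 (-0.41) and skr-9 (-0.91) ended, and 2 members were called. Under the muscle and neuron scaling, the calls of skr-5 (0.95) and skr-4 (0.52) ended and skr-3 turned to -0.11 with no call. There 5 members were called, all lower, beside 5846 of 13788 genes called lower. For skr-1 the difference was -0.04 (SE 0.08, limma adjusted p = 0.687).

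Most of the other skr genes were also lower in glp-1. Of 10, 9 passed the filter, 3 of them through WT only, and skr-6 was listed at 0 in all 12 libraries. Against WT, 7 of the 9 were lower and 2 higher in glp-1 at each age (limma), beside 45.4% of all genes lower at D6 and 48.1% at D1, with medians of -3.09 at D6 and -2.62 at D1. At D6 skr-14 had 0.0903 to 1.29 FPKM in glp-1 and 49.6 to 55.8 in WT, skr-15 had 0.0774 to 0.189 in glp-1 and 48.7 to 59.0 in WT, and skr-17 had 1.10 to 1.72 in glp-1 and 75.6 to 87.3 in WT. The differences were smaller for skr-16, with 4.50 ± 1.57 FPKM in glp-1 D6 and 21.5 ± 1.42 in WT D6, and for skr-18, with 22.6 ± 0.770 in glp-1 D6 and 100.9 ± 4.95 in WT D6 (SD, n = 3). On the X chromosome skr-20 (13223016 to 13223537), skr-19 (13224241 to 13224708) and skr-21 (13226134 to 13226664) lie in a row on the minus strand. Here skr-19 had 108 ± 8.92 FPKM in glp-1 D6 and 45.4 ± 6.86 in WT D6, and skr-20 had 42.9 ± 5.42 in glp-1 D6 and 20.7 ± 2.20 in WT D6, while skr-21 had 2.68 ± 0.696 in glp-1 D6 and 30.1 ± 3.35 in WT D6 (SD, n = 3). After the muscle and neuron scaling, neither skr-19 nor skr-20 was higher in glp-1 (0 of the 9 higher at either age, 7 lower at D1 and 9 lower at D6). Of all 13788 genes tested under that scaling, 1793 were higher and 8432 lower at D1, and 2465 were higher and 8509 lower at D6. With age in WT all 9 were called higher (median 0.59), led by skr-21 (0.88), beside 35.1% of all genes. Under the trimmed-mean scaling 4 of the 9 were (median 0.39), beside 2438 of 13669 genes. The call of skr-14 in WT (0.67) also ended without replicate 1 of WT D6 (0.62) or replicate 1 of WT D1 (0.56), and with 0.5 or 0.1 FPKM added. With age in glp-1 skr-14, skr-19 and skr-20 were higher and skr-18 was lower, and the call of skr-14 ended without replicate 1 of glp-1 D6 (0.45, against 0.70).

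The partners of Skp1 were mostly lower in glp-1. The scaffold gene cul-1 had 30.04, 29.2 and 30.4 FPKM in glp-1 D6, and 93.9, 97.4 and 94.0 FPKM in WT D6, and at D1 it had 22.99 to 24.9 FPKM in glp-1 and 92.6 to 93.3 FPKM in WT. Its log2 fold change was -1.64 (SE 0.05) at D6 and -1.90 (SE 0.05) at D1, and that of rbx-1 was -2.47 (SE 0.07) and -2.30 (SE 0.07) (limma, adjusted p from 6.34e-13 to 3.81e-12). Of 8 cullin and RING genes 7 were lower and 1 was higher at each age, beside 45.4% of all genes lower at D6 and 48.1% at D1, and the lower ones included the scaffolds cul-3 (-2.32 at D6 and -2.18 at D1) and cul-4 (-2.27 and -2.10 in the same order). The higher one was cul-6, with 7.68, 10.4 and 9.65 FPKM in glp-1 D6 and 1.34, 1.64 and 1.37 FPKM in WT D6. With age in glp-1 all 8 rose, led by the RING gene rbx-2 (0.70), beside 39.1% of all genes. Among these the call of rbx-1 (0.20) ended in the fit of glp-1 libraries alone, without trend and robust moderation, without replicate 3 of glp-1 D6 (0.13) and without replicate 1 of glp-1 D1 (0.17). In WT 4 rose, led by rbx-2 (0.74), beside 35.1% of all genes. Under the trimmed-mean scaling 2 rose and 1 fell, beside 2438 and 3890 of 13669 genes.

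For cul-6, the scaffold that works with skr-3, skr-4 and skr-5, the values at D1 were 6.09, 6.35 and 5.25 FPKM in glp-1, and 1.53, 1.20 and 2.58 FPKM in WT. All glp-1 libraries were above all WT libraries, with a log2 fold change of 2.06 (SE 0.17) at D6 and 1.34 (SE 0.17) at D1 (limma, adjusted p = 7.43e-08 and 7.08e-06). Under that scaling to muscle and neuron markers it was 0.72 at D6, still called, and 0.40 at D1, not called (limma, adjusted p = 0.107). With age it rose in glp-1 (0.56, SE 0.17, limma adjusted p = 0.015), a call that ended without replicate 2 of glp-1 D6 (0.48) or replicate 3 of glp-1 D1 (0.50), and in WT it had -0.15 (SE 0.17, limma adjusted p = 0.486).

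Most of the 14 regulators of cullins listed attach or remove the small modifier NED-8 or load ubiquitin. All 14 were lower in glp-1 at both ages (medians -1.92 at D6 and -1.69 at D1), beside 45.4% of all genes at D6 and 48.1% at D1. Among them were the COP9 signalosome genes csn-5 (-2.31 at D6 and -2.24 at D1), csn-6 (-2.21 at D6), csn-4 (-2.37 at D1) and csn-3 (-1.90 at D1), and the NED-8 conjugating enzyme gene ubc-12 (-2.17 at D6). With age 8 of the 14 rose and 2 fell in glp-1, beside 39.1% and 15.6% of all genes. In WT 12 rose and 1 fell, beside 35.1% and 22.7% of all genes. Under the trimmed-mean scaling 6 rose and 2 fell, beside 2438 and 3890 of 13669 genes. The difference between the changes with age was called higher in glp-1 for 4 of the 14 and lower for 6. The shares of all genes were 30.9% and 16.6%. The largest differences were those of uba-1 (0.74), ned-8 (-0.71) and csn-1 (-0.50). With the trimmed-mean scaling 4 were higher and 1 lower, beside 5938 and 1182 of 13669 genes. Under the muscle and neuron scaling 0 were higher and 10 lower, beside 1695 and 5846 of 13788 genes. Of 11 F-box and related substrate receptors past the filter 7 were lower at each age, against the same 45.4% and 48.1%, and 4 were higher at D6 and 3 at D1, beside 44.4% and 41.3% of all genes. The lower ones were led by skpt-1, a relative of Skp2 (-5.92 at D6 and -6.34 at D1), prom-1, which acts at meiotic entry (-5.20 at D6 and -4.85 at D1), and fog-2, needed for sperm in hermaphrodites (-4.78 at D6 and -4.40 at D1). These 3 passed the filter through WT only and so had to be lower in glp-1. Of the receptors, 1 passed through glp-1 only and had to be higher. The higher ones at D6 included fbxl-1, at 60.4 ± 1.34 FPKM in glp-1 D6 and 22.4 ± 3.26 in WT D6 (SD, n = 3). That gene rose with age in glp-1 (1.70, SE 0.11), as did mfb-1 (1.25, SE 0.15), among 9 of the 11 called, beside 39.1% of all genes. Scaled to muscle and neuron markers, 0 of the receptors were higher at D1 and 1 at D6, beside 1793 and 2465 of 13788 genes. All 8 genes of the synaptonemal complex and meiotic axis, the structure of paired meiotic chromosomes in which SKR-1 and SKR-2 proteins are known to sit, were lower, among them him-3 (-6.07 at D6 and -6.26 at D1) and syp-4 (-6.30 and -6.12 in the same order), with list medians of -5.71 at D6 and -5.20 at D1. All 8 passed the filter through WT only and so had to be lower, beside 45.4% of all genes lower at D6 and 48.1% at D1.

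**Figure D5:**
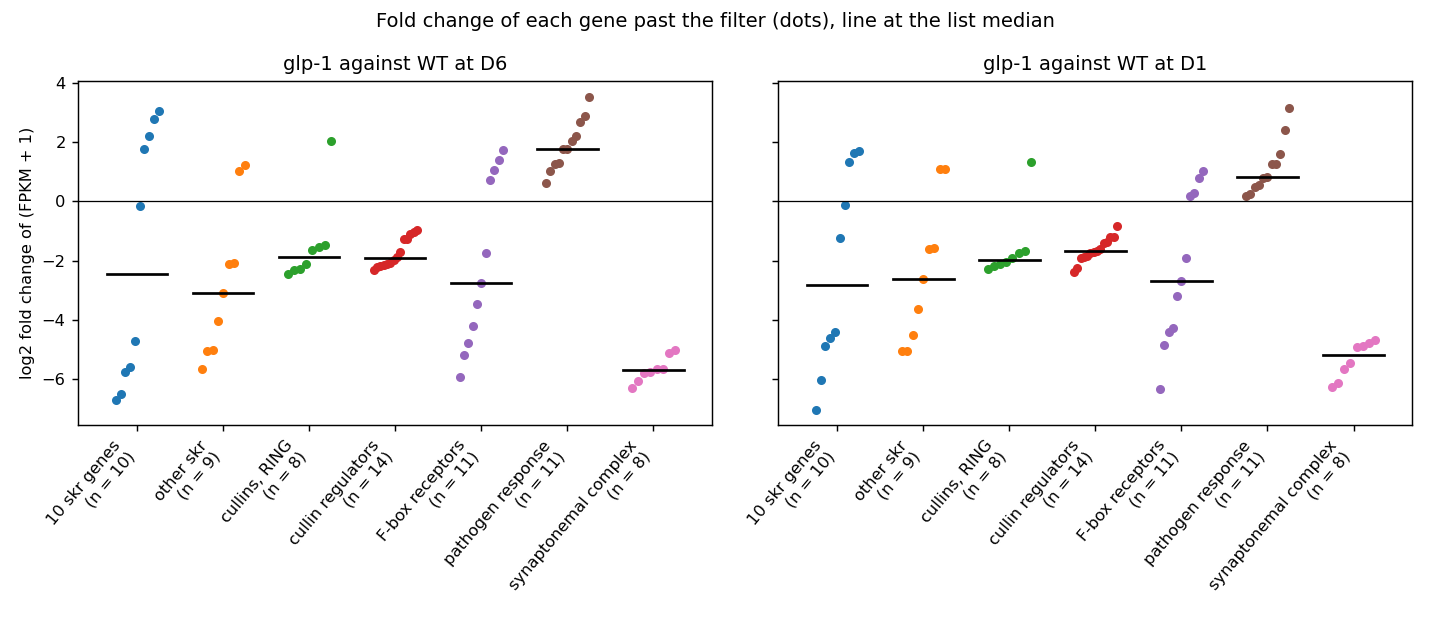
Log2 fold change of (FPKM + 1) of glp-1 over WT (vertical axis) at D6 (left) and D1 (right) for each gene past the filter in 7 lists (horizontal axis). Dots are genes, and black lines are list medians. Cullins, their regulators and synaptonemal complex genes lie below 0 but for cul-6, at 2.06 at D6; the pathogen response genes lie above 0, and the 10 skr genes spread from -7.03 (skr-2 at D1) to 3.07 (skr-5 at D6).

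Genes of the intracellular pathogen response, the setting of skr-3, skr-4 and skr-5, were mostly of low level and higher in glp-1. Of 21 found, 11 passed the filter, 7 of them through glp-1 libraries only, so that these had to differ. All 11 were higher at D6 (median 1.78) and 9 at D1 (median 0.82), beside 44.4% and 41.3% of all genes called higher. The largest differences were those of sdz-6 (3.54 at D6 and 3.17 at D1). The gene eol-1 had 17.9 ± 2.15 FPKM in glp-1 D6 and 3.09 ± 0.275 in WT D6, and pals-6 (listed as C17H1.7) had 13.5 ± 1.77 in glp-1 D6 and 1.26 ± 0.411 in WT D6 (SD, n = 3). By contrast pals-5 (listed as C17H1.6), much used as a reporter of this response, had 0.622 to 0.772 FPKM in glp-1 D6 and 0.258 to 0.644 in WT D6, was listed at 0 in all D1 libraries, and did not pass the filter. Scaled to muscle and neuron markers, 4 of the 11 were higher at D1 and 6 at D6, and none was lower. Of all 13788 genes tested under that scaling, 1793 and 2465 were higher and 8432 and 8509 lower.

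With age in glp-1 8 of these 11 rose and 1 fell, beside 39.1% and 15.6% of all genes, and in WT 6 rose and 1 fell, beside 35.1% and 22.7%. The rises in glp-1 were led by pals-33 (listed as W08A12.4; 2.36, SE 0.15), B0284.1 (2.07, SE 0.15) and pals-37 (listed as C54D10.14; 1.96, SE 0.17), and the one that fell in both genotypes was sdz-6. Both pals-33 and pals-37 stayed below 1 FPKM in every D1 library and passed the filter through D6 libraries only, so their rise was built in. The change in glp-1 exceeded that in WT for 7 of the 11, led by B0284.1 (1.596, SE 0.21), beside 30.9% of all genes. Since 7 of the 11 passed through glp-1 only, the 1 FPKM added holds down their change in WT. These counts with age thus give no support. Under the muscle and neuron scaling the difference between the changes was higher for 1 and lower for 1 of the 11. Of all 13788 genes tested under that scaling, 1695 were higher and 5846 lower. Of the 4 regulators of the response, zip-1, a transcription factor that activates it, was higher in glp-1 at D6 (1.29, SE 0.12) and at D1 (0.73, SE 0.12), and pals-22 (listed as C29F9.1; 0.58 at D6 and 0.52 at D1) and pals-25 (listed as T17A3.2; 0.49 at D6 and 0.47 at D1) were higher at both ages. The RNA sensor gene drh-1 was lower (-1.03 at D6 and -1.22 at D1). With the muscle and neuron scaling none of these 4 was higher, and 4 were lower at D6 and 2 at D1. Of all 13788 genes tested under that scaling, 8509 were lower at D6 and 8432 at D1.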

How the data were processed

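Each library has 1 deposited table of FPKM per gene, which the authors computed, per the file headers. The tools listed in the submitters' processing notes are HISAT2 2.0.4 and DESeq2 1.6.3, with WBcel235 as build; what made the FPKM, the annotation and any use of strand are not stated in those notes. FPKM is a share of the RNA of a library. Blank lines were left out, and no pair of files was identical.

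The filter kept a gene that reached 1 FPKM in 3 or more libraries, which gave 13614 genes tested and 6643 not tested. Values of log2(FPKM + 1) were fitted with limma 3.58.1 (R 4.3.3) with trend and robust moderation, as 4 group means over the 12 libraries with 8 residual degrees of freedom. P-values are two-sided and Benjamini-Hochberg adjusted over all genes tested, and 0.05 was the threshold of a call. The script was tested on simulated data. This scale understates changes of low genes. The members, gene lists and tests were chosen with earlier results of these data known.

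Of 178 list genes 174 were found, 18 of them by sequence name; skr-11 was not analysed here. The rule was to name all members, other skr genes with a group mean of 5 FPKM, cul-1, cul-6, rbx-1 and, per list and comparison, at most 3 called genes of largest change; pals-5 was singled out after its value was seen. Repeats used other pseudocounts, filters, scalings (to muscle and neuron markers, or by a trimmed mean) and variance models, fits of the compared groups alone, a replicate block, and 1 library left out at a time; for pathway genes and lists these repeats were added after the data were seen.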

Additional observations from a re-analysis of the deposited data

Results flagged for a closer look

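The change with age differed between glp-1 and WT, by the limma interaction on log2(FPKM + 1), for the 15 genes given here. Among the members it was 1.44 for skr-5, 1.07 for skr-4 and 0.44 for skr-3, where the change in glp-1 was larger, and -0.91 for skr-8 and -1.21 for skr-9, which rose in WT and were at 0.196 FPKM or less in glp-1. Both skr-8 and skr-9 passed the filter through WT alone, so their calls restate the rise in WT. Among other skr genes it was -0.61 for skr-15, which also passed through WT alone, -0.55 for skr-18 and -0.53 for skr-17. The call of skr-17 ended with the trimmed-mean scaling (-0.28), with 0.1 FPKM added, and without replicate 2 of glp-1 D1 (-0.46), of WT D6 (-0.48) or of WT D1 (-0.46). The call of skr-15 ended with the trimmed-mean scaling (-0.39) and with 0.5 FPKM (-0.51) or 0.1 FPKM (0.0557) added. Among partners other than the regulators of cullins, which are given above and went both ways, it was 0.71 for cul-6, 0.26 for cul-1, 1.23 for fbxl-1 and 0.43 for dre-1. Among pathogen response genes it was 1.6 for B0284.1, 1.56 for W08A12.4 and 1.09 for C17H1.7. Of these, B0284.1 and W08A12.4 passed the filter through glp-1 libraries only, and the 1 FPKM added holds down their change in WT. The call of cul-6 ended with the muscle and neuron scaling (0.32, limma adjusted p = 0.38), with 0.1 FPKM added (0.84, limma adjusted p = 0.0745), and without replicate 2 (0.63) or 3 (0.68) of glp-1 D6, replicate 3 of glp-1 D1 (0.64), replicate 1 (0.68) or 3 (0.69) of WT D6, or replicate 3 of WT D1 (0.51). Under the muscle and neuron scaling the calls of cul-1, dre-1, W08A12.4 (0.68) and C17H1.7 (0.59) ended. That of C17H1.7 ended with 0.1 FPKM added (0.87), and that of dre-1 without replicate 2 of glp-1 D1 (0.38) or replicate 1 of WT D6 (0.38). Of all genes tested 47.5% were called in this comparison.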

How the results depend on the processing

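Over 1050 repeats of the member results, 28 lost a call, 18 gained one, 17 changed sign and 11 values of skr-12 moved by more than the spread between libraries. The other 976 kept direction and side of the threshold or, for untested skr-12, moved by less than that spread. Leaving out a library outside the groups compared cannot move a fold change. For the interaction, the fit of the compared groups is the main fit. The count of 976 thus overstates how stable the results are. The count of members called moved by over 1.5 times in WT with age when scaled to muscle and neuron markers (9 against 5), and for the difference between ages with 0.1 FPKM added (2 against 5). Leaving out 1 library gave 8 to 9 members called at D1, 8 to 9 at D6, 4 to 7 for age in glp-1, 4 to 7 for age in WT and 5 to 6 for the interaction.

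Signs changed as follows; the cause was not tested. With the trimmed-mean scaling these were skr-1 at D6 (0.21) and in the interaction (0.23), skr-4 (-0.13) and cul-1 (-0.18) with age in WT, and skr-10 (0.15) and rbx-1 (0.10) in the interaction. Scaled to muscle and neuron markers they were skr-3 (0.64) and cul-6 (0.44) with age in WT, and in the interaction skr-2 (-0.63), skr-3 (-0.11), cul-1 (-0.31) and dre-1 (-0.11). With 0.1 FPKM added they were skr-7 (0.94), skr-10 (0.95) and skr-15 (0.0557) in the interaction, and with 0.5 FPKM skr-10 (0.14). With 1 library left out at a time, values crossed 0 with age in WT for skr-4 (-0.0344 to 0.21, negative without WT D6 replicate 3), skr-5 (-0.28 to 0.50, negative without WT D1 replicate 2) and cul-6 (-0.30 to 0.0534, positive without WT D1 replicate 3). They crossed 0 in the interaction for skr-1 (-0.0926 to 8e-04, positive without WT D1 replicate 3), skr-2 (-0.0251 to 0.69, negative without glp-1 D6 replicate 1) and skr-10 (-0.30 to 0.11, positive without replicate 2 of glp-1 D6 or of WT D6, or replicate 1 of WT D1). None of these values with 1 library left out was called.

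Replicate numbers did not pair the libraries: deviations from the group means correlated at -0.14 to 0.15 between libraries of the same number and at -0.15 to 0.15 between others. With a replicate block 8 and 9 members were called for genotype at D1 and D6, 6 and 5 for age in glp-1 and WT, and 5 for the interaction, as without it. Depth is unknown, so values near 0 carry no counting interval.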
